A study of Mus musculus with 2 samples.

Results

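The genes described here are periostin (Postn) and 7 other genes of the matricellular group and its close partners: Sparc, Sparcl1, Tnc, Thbs1, Thbs2, Fn1 and Mgp. They were chosen by name, with earlier results of these data known. They are 8 of the 32285 genes in the deposited matrices, and all 8 were among the 16037 genes that the authors kept. Periostin is one of the genes that the study picked from these same cells, so its direction in cluster 6 carries no independent weight. Each gene was followed per mouse and per cluster, and within cluster 6 also in cells without and with a unique molecular identifier (UMI) count of Krt8 or Krt18, the keratins of luminal cells.

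Matricellular proteins are secreted into the extracellular matrix but act mainly as modulators of cell adhesion, growth factor access and matrix assembly rather than as structural fibers. They signal through integrins, syndecans and scavenger receptors on the cell surface. In the mammary gland they are made largely by fibroblasts and by myoepithelial cells next to the basement membrane, and they are produced in quantity in wounds and tumors. Periostin binds integrins and crosslinking enzymes of collagen, whereas fibronectin and matrix Gla protein are usually listed beside the group rather than in it.

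Both tumors had a single genotype and treatment, Krt8-CreERT/Rosa26-mTmG/MMTV-PyMT mice given tamoxifen at 150 mg/kg on 6 days, in weeks 5 and 6 of age, and harvested at a tumor volume of 1.5 cm3. The MMTV promoter drives the polyoma middle T oncogene in mammary epithelium, and the Krt8 promoter drives a tamoxifen-dependent recombinase that turns the reporter from red to green fluorescent protein (GFP), so the label marks cells that used Krt8 at the time of tamoxifen and their descendants. Live GFP-positive cells negative for CD31 and CD45 were sorted, which should leave out endothelial cells and leukocytes while fibroblasts are kept out only by the GFP label. There was 1 library per mouse, 2 mice and no untreated or unlabelled arm, so the comparisons are between groups of cells within the same animals. Cluster 6 is the cluster that the study describes as lumino-basal, cluster 13 the one it describes as mature luminal, and "other tumor cells" here means all annotated cells outside clusters 6 and 13.

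The matrices held 63140346 UMIs in mouse 1 and 61529883 UMIs in mouse 2, with 3829 and 5330 annotated cells in 18 clusters. Cluster 6 had 260 cells in mouse 1 and 167 cells in mouse 2, at a median of 12186 and 8146 UMIs per cell, cluster 13 had 73 and 192 cells at 15278 and 11818.5 UMIs, and the other tumor cells numbered 3496 and 4971 at 15295 and 9369 UMIs. The matrices shared 20 barcodes, 9 of them between annotated cells and 0 between the cluster 6 cells of the 2 mice. In cluster 6, 14 of 14 basal and myoepithelial genes and 9 of 9 pan-luminal genes had UMIs in both mice, with summed levels of 6867 and 6481 UMIs per 1000000 UMIs of the same cells (CPM) for the basal list, against 378 and 464 CPM in cluster 13. The 13 genes of a fibroblast list that held no member summed to 1972 and 3979 CPM in cluster 6, 186 and 837 CPM in cluster 13 and 54.1 and 36.8 CPM in the other tumor cells, and Col1a2, Col3a1, Lum, Dpt and Mfap5 were at 0 in cluster 13 of both mice. The endothelial list summed to 27.9 and 403 CPM in cluster 6, the pericyte list to 70.1 and 363 CPM and the macrophage list to 18.2 and 14.5 CPM.

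Promoter sequences in RefSeq (build GRCm38.p6) matched 4 of the 8 genes, Postn, Sparc, Tnc and Thbs2, in 6 windows. Postn lies at chr3:54361109-54391037 on the plus strand and Sparc at chr11:55394500-55423183 on the minus strand in the GENCODE annotation of the same build. The 250 bases before a RefSeq start of each are shown because these genes had the most similar levels across all cluster sums of any 2 members. The Postn window is chr3:54360857-54361106 and ends at the base before the start, and the Sparc window is chr11:55420081-55420330, read on the minus strand, from a RefSeq start that lies inside the GENCODE gene. Capitals mark TATAAA.
Postn: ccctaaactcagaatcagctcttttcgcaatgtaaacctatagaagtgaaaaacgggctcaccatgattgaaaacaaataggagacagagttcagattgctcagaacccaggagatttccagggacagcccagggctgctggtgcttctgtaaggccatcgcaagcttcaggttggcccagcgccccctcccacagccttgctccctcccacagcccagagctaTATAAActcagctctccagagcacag
Sparc: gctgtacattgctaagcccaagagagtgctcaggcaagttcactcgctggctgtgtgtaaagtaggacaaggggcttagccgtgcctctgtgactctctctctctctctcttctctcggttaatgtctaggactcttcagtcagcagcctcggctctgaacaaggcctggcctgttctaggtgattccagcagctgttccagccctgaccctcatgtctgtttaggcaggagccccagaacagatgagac
Both strands were searched for TATAAA, the AP-1 letters TGANTCA, the TEAD letters GGAATG, the SOX letters AACAAT and the E-box CAGGTG, none of which overlapped another in these windows. The Postn window held TATAAA from 26 to 21 bases before the start, and no other of these motifs. The Sparc window held no match to any of them, which says only that these letters are not in it. A second Postn start lies upstream on chromosome 3, and its window held AACAAT 165 to 160 bases before that start and no TATAAA. The Thbs2 window on chromosome 17 held TTTATA, the same letters on the other strand, 126 to 121 bases before the start. The 2 Tnc windows on chromosome 4 overlap, and each held TATAAA, 205 to 200 and 126 to 121 bases before its start. A match on either strand was present before 12.4% of all 32851 listed starts for TATAAA, 6.75% for TGANTCA, 12.6% for GGAATG, 9.42% for AACAAT and 17.2% for CAGGTG.

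Postn, whose protein binds integrins and fibrillar collagen and supports cell movement, was almost confined in its UMIs to cluster 6. Cluster 6 had 679.6 CPM in the first mouse and 832 CPM in the second (mean 756 ± 108, SD, n = 2). In cluster 13 there were 0 UMIs in mouse 1 and 1 UMI in mouse 2, and the other tumor cells had 6.28 and 3.13 CPM. Cluster 6 therefore held 87.2% of all Postn UMIs of mouse 1 and 88.8% of those of mouse 2, while it held 5.82% and 2.79% of all UMIs. The next clusters by mean level were cluster 15 (27.2 and 81.4 CPM) and cluster 11 (39.1 and 13.9 CPM), whose values overlapped between the mice, whereas both cluster 6 values lay above both values of every other cluster. Cluster 7 had no Postn UMI in either mouse.

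Sparc and Sparcl1 encode the collagen-binding glycoprotein SPARC and its relative hevin. Sparc had 2517 and 2295 CPM in cluster 6 (mean 2406 ± 157, SD, n = 2), against 0.82 and 4.55 CPM in cluster 13 and 40.1 and 4.72 CPM in the other tumor cells. Cluster 15 came next at 405 and 567 CPM, below both cluster 6 values and far above cluster 11 at 64.7 and 0.87 CPM. Cluster 6 held 79.9% of the Sparc UMIs of mouse 1 and 93.3% of those of mouse 2. Sparcl1 was spread much more widely: it had 879 and 911 CPM in cluster 6, 26.2 and 8.69 CPM in cluster 13 and 155 and 85.6 CPM in the other tumor cells, and cluster 6 held only 26.4% and 24.1% of its UMIs. In cluster 15, where all 191 cells of mouse 1 and all 17 cells of mouse 2 had a Sparcl1 UMI, its level was 494 and 855 CPM, and the gap to cluster 6 in mouse 2 was smaller than the spread between the cluster 15 values. Cluster 13 was the lowest of the 18 clusters for Sparcl1 by the mean of the mice.

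**Figure D1:**
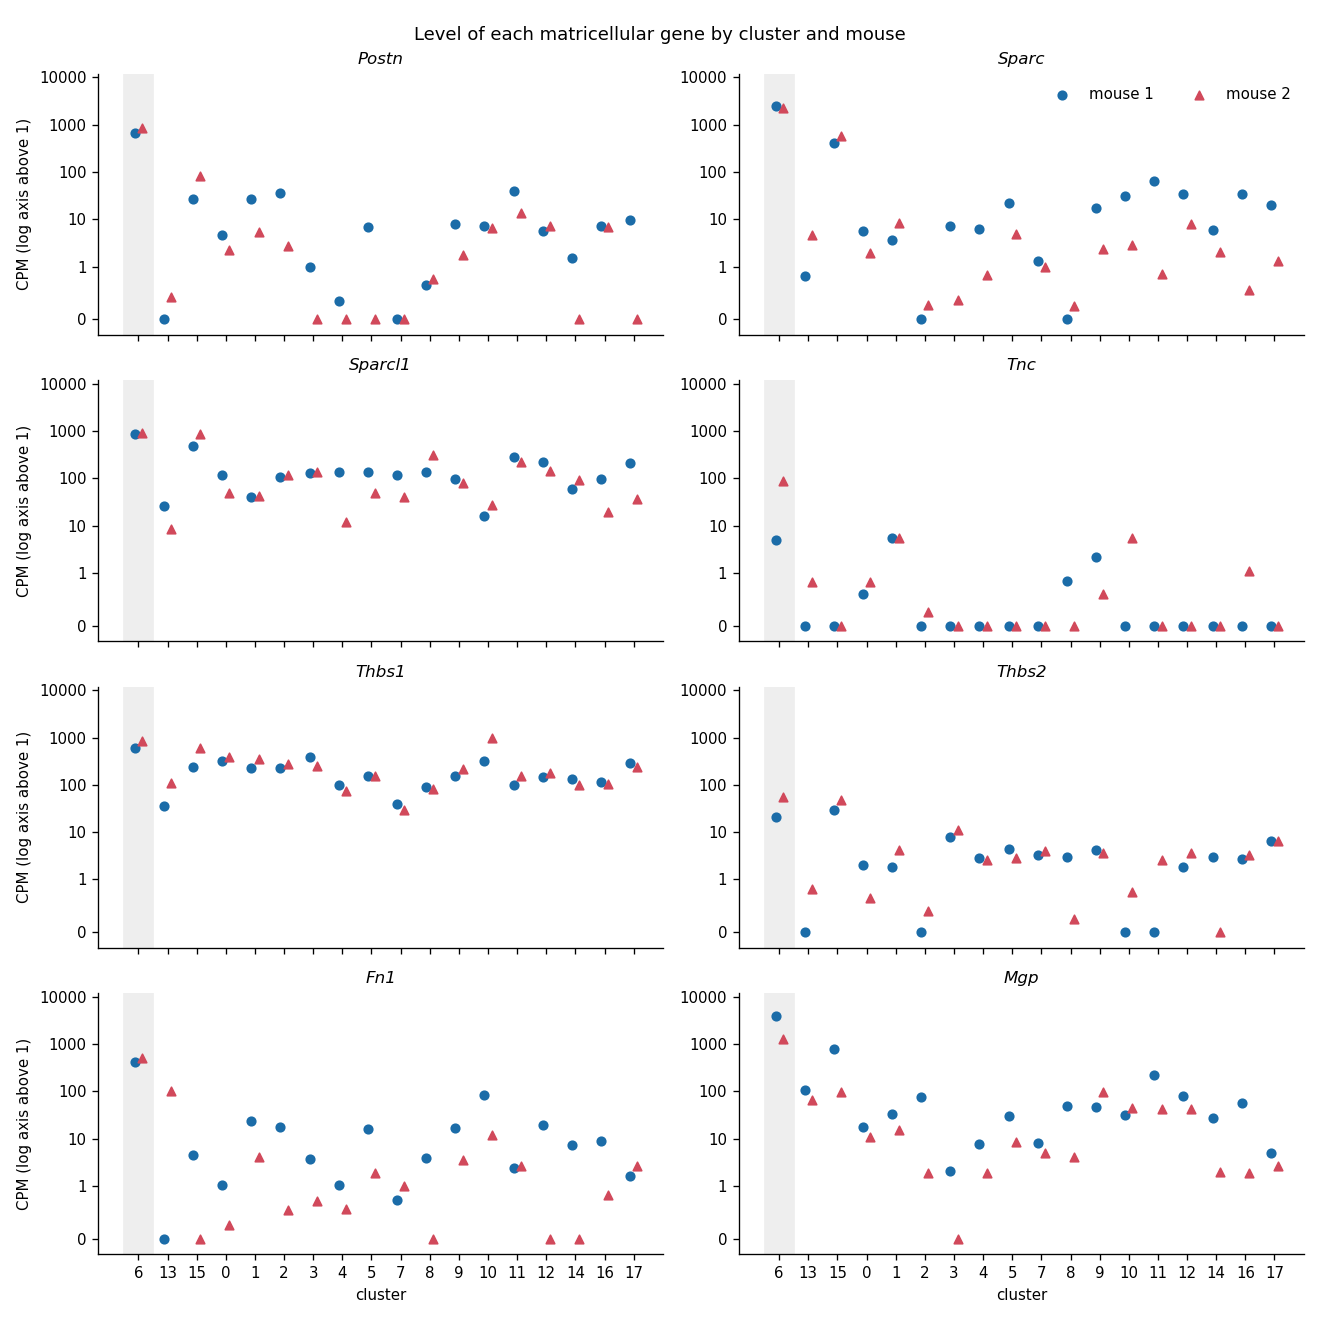
Levels of the 8 genes in CPM of summed UMIs (vertical axis, logarithmic above 1 CPM) in each of the 18 clusters (horizontal axis), with mouse 1 as circles and mouse 2 as triangles and cluster 6 shaded at the left. Postn, Sparc, Sparcl1, Fn1 and Mgp stand highest in cluster 6 of both mice, with Sparcl1 of mouse 2 close behind in cluster 15. Thbs2 is highest in cluster 15 of mouse 1 and in cluster 6 of mouse 2. Thbs1 of mouse 2 is highest in cluster 10, at 993 CPM.

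Tnc, Thbs1 and Thbs2 encode tenascin C, an adhesion-modulating protein of remodelled matrix, and thrombospondins 1 and 2, inhibitors of vessel growth of which the first also releases TGF-beta from its latent form. Tnc differed most between the mice: cluster 6 had 17 UMIs in mouse 1 (4.98 CPM) and 143 UMIs in mouse 2 (89.9 CPM), and cluster 1 had 5.41 and 5.49 CPM, so that the levels of clusters 6 and 1 overlapped. In mouse 2, 51 of the 143 Tnc UMIs came from a single cell, and without that cell the cluster 6 level was 58.5 CPM. The 13 other clusters of mouse 1 and 10 of mouse 2 that lacked any Tnc UMI included cluster 15 of both. Thbs1 was present in every cluster, at 599 and 836 CPM in cluster 6, 35.3 and 109 CPM in cluster 13 and 238 and 297 CPM in the other tumor cells. Its order was not the same in the mice, with 323 and 993 CPM in cluster 10, and the cluster 6 and cluster 10 values overlapped; cluster 6 held 13.7% and 7.67% of its UMIs. Thbs2 was low throughout, with 21.1 and 54.7 CPM in cluster 6, 29.6 and 47.5 CPM in cluster 15, 0 and 0.83 CPM in cluster 13 and 5.80 and 2.28 CPM in the other tumor cells. Clusters 6 and 15 overlapped for Thbs2, and both lay above every other cluster in both mice.

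Fn1 encodes fibronectin, the adhesive glycoprotein on which other matrix proteins assemble, and Mgp encodes matrix Gla protein, an inhibitor of calcification that binds bone morphogenetic proteins. Fn1 had 424 and 497 CPM in cluster 6, 0 and 104 CPM in cluster 13 and 5.61 and 1.51 CPM in the other tumor cells. The cluster 13 UMIs all came from mouse 2, where 37 of 192 cells had at least 1 and the highest cell held 12.0% of the 251. Cluster 6 held 82.7% of the Fn1 UMIs of mouse 1 and 70.5% of those of mouse 2. Mgp had 3889 CPM in cluster 6 of mouse 1 and 1304 CPM in cluster 6 of mouse 2, against 107 and 65.8 CPM in cluster 13 and 83.1 and 13.6 CPM in the other tumor cells. Cluster 15 followed with 777 and 98.4 CPM, below both cluster 6 values.

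Single cells gave the same picture after thinning to 2000 UMIs, which removes the difference in depth and left 245 and 157 cells of cluster 6. A Postn UMI was found in 42.0% of cluster 6 cells of mouse 1 (exact 95% interval 35.8 to 48.5%) and 53.5% of those of mouse 2 (45.4 to 61.5%), or 64.6% and 67.1% without thinning. In cluster 13, 0 of 72 and 0 of 183 thinned cells had one, which allows shares of up to 4.17% and 1.64% when 3 cells are taken as the limit (exact 95% upper limits 4.99% and 2.00%), and in the other tumor cells the shares were 1.29% and 0.508%. These intervals cover counting error only. The shares in cluster 6 of mouse 1 and mouse 2 were 72.2% and 58.0% for Sparc, 62.4% and 51.6% for Sparcl1, 38.4% and 42.7% for Thbs1, 18.4% and 18.5% for Fn1 and 49.0% and 36.3% for Mgp. Tnc was seen in 0.816% and 7.01% of cells and Thbs2 in 2.86% and 3.82%. Cluster 13, the mature luminal cells used as background, at a median depth of 15278 and 11818.5 UMIs before thinning, had 6.94% and 9.29% of cells with Thbs1, 0 and 9.84% with Fn1, 6.94% and 2.19% with Mgp and at most 1.64% with Sparc, Sparcl1, Tnc or Thbs2. In mouse 1 the Tnc share of cluster 6 (0.0990 to 2.92%) lay within what 0 of 72 cells allow in cluster 13, so no difference was detectable there at this depth.

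**Figure D2:**
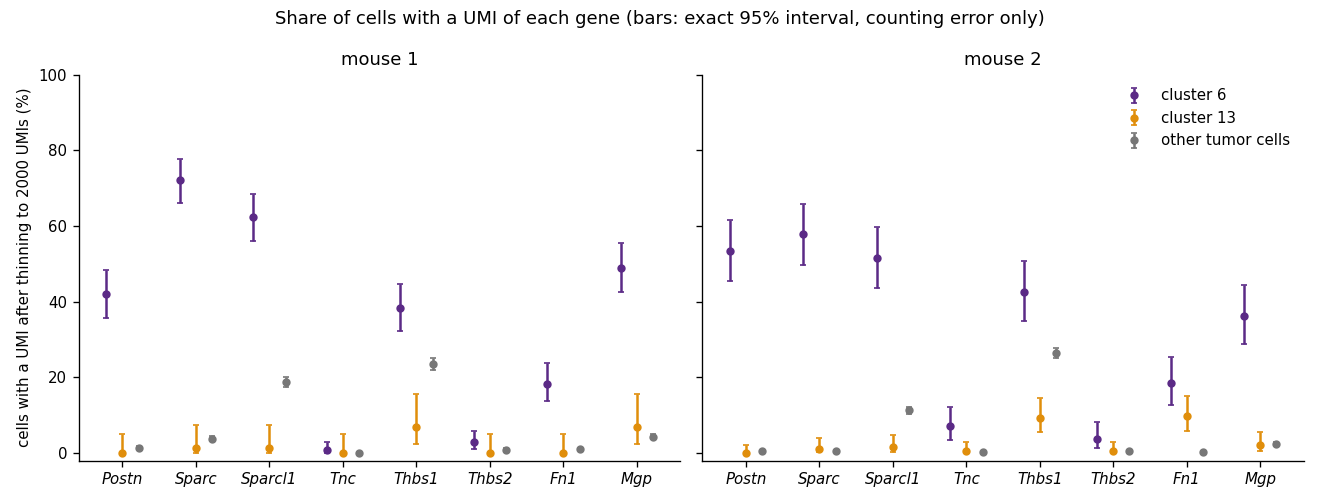
Percent of cells with at least 1 UMI of each gene (vertical axis) after thinning every cell to 2000 UMIs, in cluster 6, cluster 13 and the other tumor cells, for mouse 1 (left) and mouse 2 (right); bars are exact 95% intervals of counting error. Sparc reaches 72.2% and 58.0% of cluster 6 cells, while Tnc and Thbs2 stay at or below 7.01%.

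UMIs of several of the genes met in the same cells. UMIs of 3 or more of the 8 genes were found in 141 of 245 thinned cluster 6 cells of mouse 1 (57.6%) and 81 of 157 of mouse 2 (51.6%), against 0 of 72 and 0 of 183 in cluster 13 and 2.28% and 0.315% of the other tumor cells. In cluster 15 the shares were 25.1% of 191 cells and 23.5% of 17 cells. No cluster 6 cell had all 8, and 6.53% and 8.28% had none. Sparc and Fn1 overlapped in both mice: Fn1 was seen in 23.2% of cells with Sparc and 5.88% of cells without it in mouse 1, and in 29.7% and 3.03% in mouse 2. Postn was less closely tied to Fn1: of cells with Fn1, 55.6% in mouse 1 and 51.7% in mouse 2 had Postn, against 39.0% and 53.9% of cells without Fn1. The cells are not independent replicates, and these shares are a description.

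The UMIs were uneven over cluster 6 cells. The 10 cells richest in Postn held 39.8% of its UMIs in mouse 1 and 41.0% in mouse 2, and the single richest cell 8.15% and 9.37%. Fn1 was more concentrated, with 55.5% and 79.5% in its 10 richest cells, and in mouse 2 a single cell held 27.3% of it, without which the level was 365 CPM. Sparcl1 was the most evenly spread, with 20.2% and 32.5% in the 10 richest cells.

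To ask whether the differences between groups of cells were seen in both mice, UMIs were summed per mouse and group and compared by the quasi-likelihood test of edgeR, blocked by mouse and adjusted over all genes tested by the Benjamini-Hochberg method. The clusters were drawn by the study from the same expression values, so these tests address agreement between the animals, not whether clusters are distinct. Against cluster 13, 7 of the 7 members tested were higher in cluster 6 and 0 were lower, where 16.3% of all 9794 genes tested were higher and 12.1% lower. Postn, Sparc and Thbs2 passed the filter on low counts through cluster 6 alone and so could hardly fail to differ, which makes the count a description. Fn1, with 0 UMIs in cluster 13 of mouse 1, also needed a cluster 6 sum to pass. Postn had the highest log2 fold change of the 7, at 11.11 (SE 0.47, adjusted p = 3.33e-19), and Sparc followed at 9.45 (SE 0.34, adjusted p = 9.87e-21). Sparcl1 rose by 5.76 (SE 0.32), Thbs2 by 6.08 (SE 0.65), Mgp by 4.65 (SE 0.24), Fn1 by 3.72 (SE 0.54) and Thbs1 by 3.35 (SE 0.27) on the log2 scale. Since cluster 13 had only 1 Postn UMI, the Postn fold is better read from the counts: 3641 against 1 UMI over both mice, a ratio of 2648 with a counting interval of 475 to 104612. Tnc was too low to be tested there, at 160 UMIs against 2, a ratio of 58.2 (15.8 to 485), and Thbs2 had 159 against 2, a ratio of 57.8 (15.7 to 482).

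Fn1 was the least secure of these calls. It was not called by DESeq2 (adjusted p = 0.252), without the block (adjusted p = 0.0883), after cells with UMIs of 3 or more fibroblast genes were left out (adjusted p = 0.0869) or with only the basal keratin cells of cluster 6 (adjusted p = 0.206), and its log2 fold change was between 1.53 and 12.86 over the settings tried, the highest where the remaining cluster 13 sum had 0 Fn1 UMIs. When the cluster 6 sum of mouse 2 was left out, the fit called 0 of 10672 genes (3053 at an unadjusted p under 0.05), and 7 of the 8 members then had an unadjusted p under 0.05. DESeq2 was not run without that sum. Without the cluster 6 sum of mouse 1, Fn1 and Thbs1 were lost and 6 members were called. The median of the 7 members was 5.76 beside 0.01 for all genes, and library size scaling without TMM moved the median of all genes to 0.11.

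Against the other tumor cells, all 8 members were higher in cluster 6 by the same test, where 12.1% of 14350 genes were higher and 6.63% lower. This comparison shares the cluster 6 sums with the one above. The members were chosen with earlier results of these data known, so the count of 8 is a description. Tnc had 0.35 and 0.85 CPM in the other tumor cells of mouse 1 and mouse 2. It needed a cluster 6 sum to pass the filter on low counts, so its call is a description. Postn rose by 7.35 on the log2 scale (SE 0.34, adjusted p = 2.93e-06), Sparc by 7.37 (SE 0.68), Fn1 by 7.19 (SE 0.48) and Mgp by 6.02 (SE 0.28). Tnc rose by 5.63 (SE 0.62), Thbs2 by 3.16 (SE 0.55) and Sparcl1 by 2.92 (SE 0.23), and Thbs1 had the smallest change at 1.38 (SE 0.16, adjusted p = 0.000568). With cluster 15 left out of the other tumor cells, the change of Sparc was 9.21 and that of Mgp 6.96, and 8 of 8 remained called. Leaving out the sum of a single mouse kept 5 to 7 members. Tnc, Thbs1 and Thbs2 were not called without the cluster 6 sum of mouse 2, nor without the other tumor cells of mouse 2, Tnc and Thbs1 not without the other tumor cells of mouse 1, and Mgp not without the cluster 6 sum of mouse 1. Without the block Tnc was not called (adjusted p = 0.0639).

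UMIs of 3 or more fibroblast genes were found in 79 of 260 cluster 6 cells of mouse 1 (30.4%) and 41 of 167 of mouse 2 (24.6%). They were found in 4 of 73 and 28 of 192 cluster 13 cells and in 17 of 3496 and 4 of 4971 other tumor cells. Cells with fewer than 3 such genes count as without fibroblast genes here and below, although they can hold UMIs of some. When only cluster 6 cells with a Krt8 or Krt18 UMI and without such fibroblast genes were summed (156 cells in mouse 1 and 116 in mouse 2), 7 of the 7 members tested were higher than in cluster 13, where 13.4% of 9270 genes were higher. This count is again a description, because Postn, Sparc and Thbs2 passed the filter through cluster 6 alone and Fn1 needed a cluster 6 sum to pass. The sums of cluster 13 and of the other tumor cells kept all their cells, those with 3 or more fibroblast genes included. With such cells left out of clusters 6 and 13 and no keratin UMI asked for, 6 of the 7 members tested were higher. Fn1 was not called in that fit, where 1072 of 9228 genes were higher. A Krt8 or Krt18 UMI does not settle what a cell is. In mouse 2 the summed level of the 2 keratins was 417 CPM in the cells with such a UMI and fibroblast genes and 5115 CPM in those with such a UMI and no fibroblast genes. In mouse 1 these levels lay closer together, at 3206 and 4796 CPM. In the fit of the restricted cells with cluster 13, Postn had a log2 fold change of 10.48 (SE 0.52), Sparc 8.28 (SE 0.35), Mgp 2.37 (SE 0.27) and Fn1 1.53 (SE 0.36). Against the other tumor cells 7 of 8 were higher, where 8.79% of 14187 genes were higher, with Postn at 6.80 (SE 0.26) and Thbs2 not called at 1.10 (SE 0.52, adjusted p = 0.177). Tnc again needed a cluster 6 sum to pass the filter. In the restricted cells Postn stood at 496 and 538 CPM, below its 679.6 and 832 CPM in the whole cluster. The cells with fibroblast genes, at 1050.3 and 1839 CPM, held 51.7% and 52.8% of its cluster 6 UMIs. In the same restricted cells Fn1 was at 78.0 and 111 CPM and Mgp at 465 and 464 CPM.

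**Figure D3:**
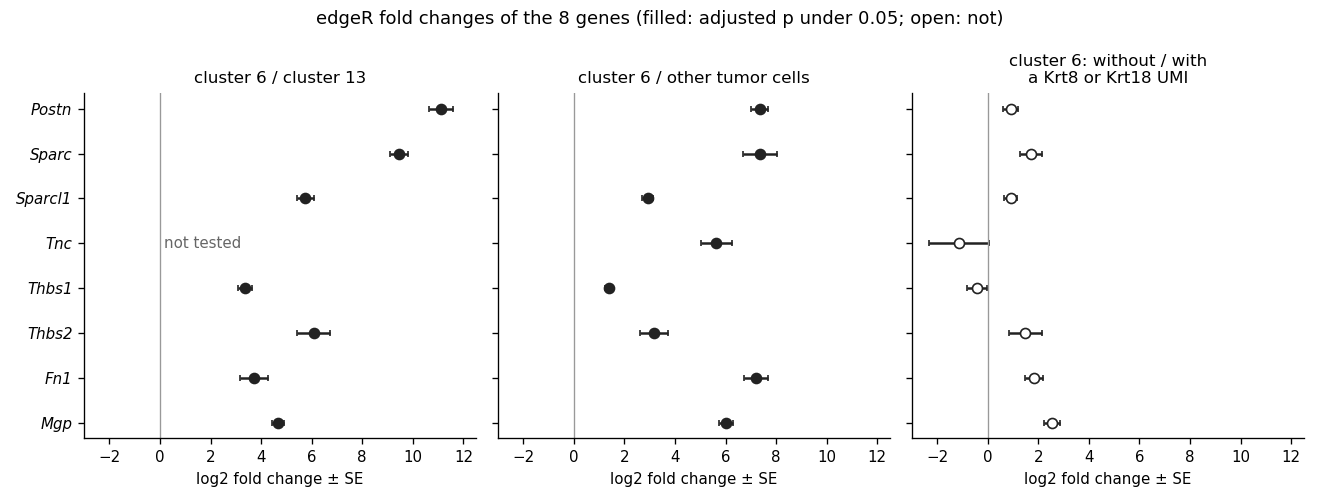
Log2 fold changes with standard errors (horizontal axis) of the 8 genes (vertical axis) from edgeR for cluster 6 over cluster 13, cluster 6 over the other tumor cells, and cluster 6 cells without over cells with a Krt8 or Krt18 UMI; filled points had an adjusted p under 0.05. All points of the first 2 panels are filled and above 0, Tnc was not tested with cluster 13, and no point of the third panel is filled.

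Related genes moved with the members. Of 24 other matricellular genes, 17 could be tested with cluster 13, of which 15 were higher and 0 lower (median log2 fold change 4.75). In the comparison with the other tumor cells 16 of 19 were higher. Over all genes tested, 16.3% were higher and 12.1% lower with cluster 13, and 12.1% and 6.63% with the other tumor cells. Bgn, Fstl1 and Ccn3 with cluster 13, and Tnxb with the other tumor cells, passed the filter on low counts through cluster 6 alone. The counts of this and the following lists are therefore a description. Bgn, which encodes the proteoglycan biglycan, had 535 and 617 CPM in cluster 6, against 0 and 0.41 CPM in cluster 13 and 6.22 and 1.68 CPM in the other tumor cells. Fstl1, a secreted relative of SPARC, had 154 and 369 CPM in cluster 6, against 0 and 0.41 CPM in cluster 13. Ccn3 had 17.0 and 54.7 CPM in cluster 6 and 0 UMIs in cluster 13 of both mice, and Tnxb 2.64 and 34.0 CPM in cluster 6 and 0 UMIs in the other tumor cells.

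Most partners of matrix assembly, of which several are also on the fibroblast list, were higher: 12 of 14 with cluster 13 (median 7.22) and 13 of 14 with the other tumor cells (median 6.97), with 0 lower. Col3a1 and Col1a2, chains of fibrillar collagens to which periostin and SPARC bind, had 330 and 851 CPM and 234 and 530.1 CPM in cluster 6, against 0 UMIs in cluster 13 of both mice. Col5a1 had 31.1 and 74.2 CPM in cluster 6, also against 0 UMIs in cluster 13. These collagen genes passed the filter with cluster 13 through cluster 6 alone. Lox, an enzyme that crosslinks collagen, had 31.1 and 69.2 CPM in cluster 6, against 0.02 and 0.06 CPM in the other tumor cells. Lox passed the filter with the other tumor cells in the same way.

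Of 18 receptor genes tested with cluster 13, 11 were higher and 3 lower (median 1.20), and of 20 tested with the other tumor cells 15 were higher and 0 lower (median 1.28). Lrp1, a scavenger receptor for thrombospondins, had 141 and 141 CPM in cluster 6, against 4.10 and 9.93 CPM in cluster 13 and 2.74 and 2.85 CPM in the other tumor cells. Ddr2, a collagen receptor, had 8.80 and 24.5 CPM in cluster 6 and 0 UMIs in cluster 13, and Egfr had 96.8 and 89.9 CPM, against 13.1 and 7.86 CPM in cluster 13. Cd36, a receptor of thrombospondin 1, had 1.17 and 6.29 CPM in cluster 6, against 0.04 and 0.09 CPM in the other tumor cells. Ddr2 with cluster 13 and Cd36 with the other tumor cells passed the filter through cluster 6 alone. Of 14 genes of the TGF-beta pathway, which induces several of the members in fibroblasts, 9 were higher in each comparison and 0 lower. Ltbp2 had 116 and 132 CPM in cluster 6, against 5.74 and 3.72 CPM in cluster 13. Tgfbr3 had 59.2 and 64.1 CPM, against 3.28 and 1.66 CPM in cluster 13, and passed the filter there through cluster 6 alone. Inhba, an activin subunit, had 363 and 184 CPM in cluster 6 and Bmp2 47.2 and 11.3 CPM, against 9.98 and 5.19 CPM and 1.48 and 0.85 CPM in the other tumor cells.

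Markers of cell types moved in the same comparisons, and their part in the members' differences was measured only by the exclusions given here. Of the 13 fibroblast genes, 11 were higher than in cluster 13 and 13 higher than in the other tumor cells. Lum had 166 and 131 CPM in cluster 6 and 0 UMIs in cluster 13. Dpt had 17.6 and 116 CPM in cluster 6, against 0 and 0.02 CPM in the other tumor cells. Lum with cluster 13 and Dpt with the other tumor cells passed the filter through cluster 6 alone. Of the 14 basal and myoepithelial genes, 12 were higher in each comparison, among them Cnn1 (132 and 147 CPM in cluster 6), Tagln (1005 and 785 CPM), Acta2 (1469 and 1479.6 CPM), Krt5 (167 and 160.4 CPM) and Myh11 (102 and 118 CPM), whose products are contractile or keratin proteins of myoepithelium. Of the 9 pan-luminal genes 8 were lower in each comparison, with Krt19 at 59.8 and 125 CPM in cluster 6, against 6180.1 and 6906 CPM in cluster 13. Cldn4 (209 and 204 CPM in cluster 6) and Cldn3 (316 and 187 CPM) were lower in both comparisons, and Krt7 (244 and 275 CPM) was lower with cluster 13 and not called with the other tumor cells. All 7 endothelial genes were higher than in the other tumor cells, mostly from mouse 2 (Cdh5 7.33 and 95.6 CPM, Cldn5 0.88 and 14.5 CPM, Emcn 4.98 and 66.7 CPM), and so were 3 of 7 pericyte genes (Rgs5 1.17 and 213 CPM, Pdgfrb 15.5 and 22.6 CPM, Cspg4 1.76 and 10.1 CPM). With cluster 13, Pecam1 (5.86 and 72.9 CPM), Mcam (42.5 and 58.5 CPM), S100b (36.9 and 16.4 CPM), Cdh19 (8.80 and 10.7 CPM) and Fabp4 (21.1 and 113 CPM) were higher in cluster 6, and Notch3 (6.16 and 20.8 CPM) and Erbb3 (15.5 and 33.3 CPM) lower. Few genes of these lists could be tested there. Of 2 endothelial genes 2 were higher, of 3 pericyte genes 2 were higher and 1 lower, and the 1 adipocyte gene was higher. Of 4 Schwann cell genes 2 were higher and 2 lower. With the other tumor cells 0 of 5 Schwann cell genes were higher and 1 was lower. No macrophage gene was called in edgeR, with Cd68 at 17.0 and 6.92 CPM in cluster 6 and Ptprc and Lyz2 at most 5.03 CPM. With cells holding 3 or more endothelial, pericyte or macrophage genes left out, Postn had a change of 11.11 with cluster 13 and 7.38 with the other tumor cells.

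Within cluster 6, 56 of 260 cells of mouse 1 and 25 of 167 cells of mouse 2 had no Krt8 or Krt18 UMI. They were shallower, with a median of 4573 and 4943 UMIs per cell against 13867 and 8439 UMIs in cells with such a UMI. The cells with such a UMI had 4339 and 4187 CPM of Krt8 and Krt18 together. How far depth accounts for the absence of the keratins was not tested. Postn had 881 CPM in the cells without and 658 CPM in the cells with a luminal keratin UMI in mouse 1, and 1754 and 738 CPM in mouse 2. Sparc had 4004 and 2354 CPM in mouse 1 and 9017 and 1610 CPM in mouse 2, in the same order, and Sparcl1 1280.1 and 835 CPM and 1720 and 828 CPM. Each of these genes was higher in the cells without in both mice, but in the cells with a luminal keratin UMI none of them was low. These cells still held 87.2% of the Postn UMIs of cluster 6 of mouse 1 and 80.5% of those of mouse 2. Fn1 had 1533 CPM in cells without and 303 CPM in cells with in mouse 1, and 999.6 and 446 CPM in mouse 2, and Mgp had 11685 and 3037 CPM in mouse 1 and 6222 and 802 CPM in mouse 2. Thbs1 did not keep an order, with 655 and 593 CPM in mouse 1 and 374 and 883 CPM in mouse 2. Tnc had 4 UMIs and 13 UMIs in mouse 1, and 1 and 142 UMIs in mouse 2, and Thbs2 had 20.8 and 21.1 CPM in mouse 1 and 211 and 38.8 CPM in mouse 2.

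**Figure D4:**
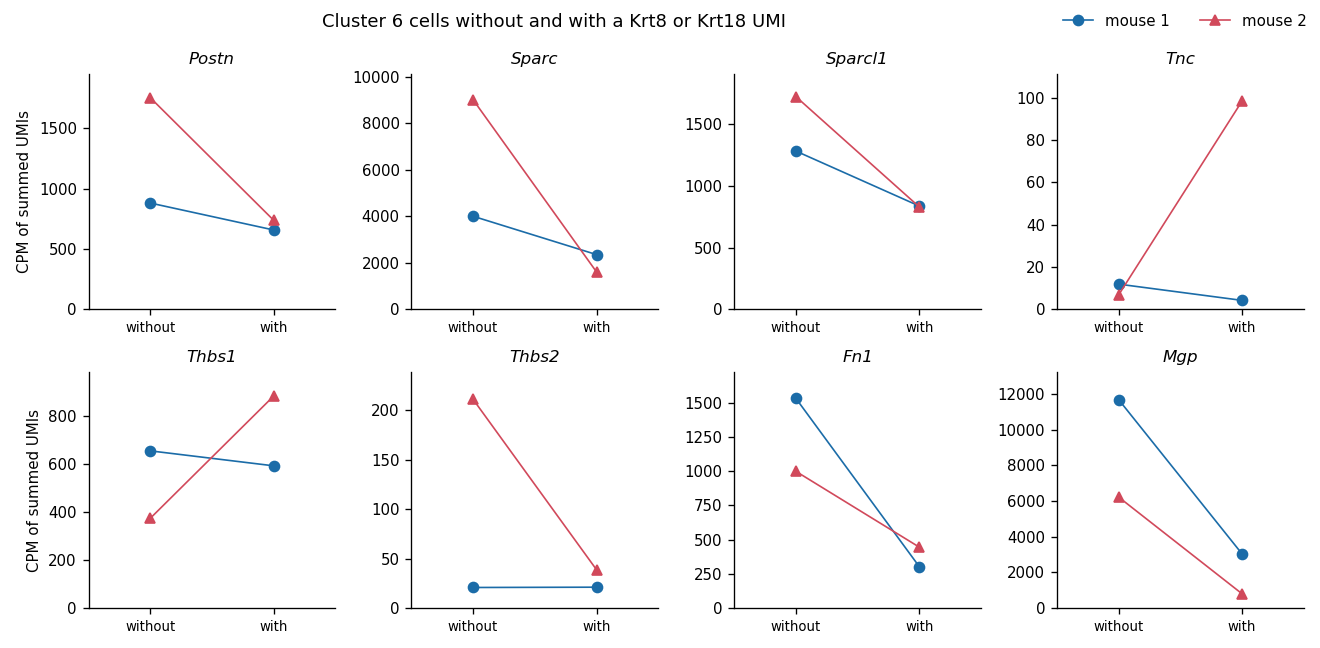
CPM of summed UMIs (vertical axis, from 0) of the 8 genes in cluster 6 cells without (left) and with (right) a Krt8 or Krt18 UMI, with a line for mouse 1 (circles) and for mouse 2 (triangles). Mgp, Fn1, Sparc, Sparcl1 and Postn fall to the right in both mice, and the lines of Thbs1 and of Tnc run down in mouse 1 and up in mouse 2.

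None of these differences passed the threshold in edgeR, which called 0 of 8 members in this split, 5 of them having an unadjusted p under 0.05. Of 7868 genes other than the 2 keratins that made the split, 0% were higher and 0.0127% lower in the cells without, that is 1 gene, Plet1, while 979 had an unadjusted p under 0.05. The log2 fold changes of cells without over cells with were 2.52 for Mgp (SE 0.32, adjusted p = 0.0880), 1.84 for Fn1 (SE 0.36), 1.70 for Sparc (SE 0.44), 1.49 for Thbs2 (SE 0.66), 0.91 for Postn (SE 0.30, adjusted p = 0.311), 0.91 for Sparcl1 (SE 0.26), -0.44 for Thbs1 (SE 0.39) and -1.15 for Tnc (SE 1.19). DESeq2 called Mgp and Fn1, and the count depended on the setting. With the keratin UMIs called after thinning, each cell was judged at the same depth. In that setting edgeR called 6 of 8 members higher, Postn among them at 1.11 (adjusted p = 0.0240). The cells without then summed to 834099 UMIs in mouse 1 and 440970 UMIs in mouse 2, against 335913 and 147052 UMIs before. They thus included cells that had a Krt8 or Krt18 UMI before thinning. With the cells of 3 or more fibroblast genes left out, Postn turned to -1.67 (adjusted p = 0.103), whereas Mgp (3.72), Fn1 (3.22) and Sparc (1.51) were higher and called. This left 25 cells without in mouse 1 and 10 in mouse 2, with 32 Postn UMIs and 1 Postn UMI. Postn had 413 against 496 CPM in mouse 1 and 19.1 against 538 CPM in mouse 2. Of the 10 cells, 5 had UMIs of 3 or more endothelial, pericyte or macrophage genes. In the fit of all cluster 6 cells the median of the 8 members was 1.20 beside -0.02 for all genes.

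Markers of other cell types differed in this split as well, not all in the same direction. The fibroblast list summed to 4465 CPM in cells without and 1700 CPM in cells with in mouse 1, and 14050 and 2953 CPM in mouse 2, with all 13 genes present in each. The pericyte list summed to 125 and 64.1 CPM in mouse 1 and 2258 and 169.8 CPM in mouse 2, and Rgs5, its defining gene, had 0 UMIs in the 56 cells of mouse 1 and 1591 CPM in the 25 cells of mouse 2. The endothelial list summed to 173 and 12.0 CPM in mouse 1 and 2060 and 234 CPM in mouse 2. The Schwann cell list summed to 214 and 74.8 CPM in mouse 1 and 40.8 and 101 CPM in mouse 2, and the macrophage list to 26.8 and 17.2 CPM and 6.80 and 15.2 CPM. Epcam, an epithelial adhesion gene, had 158 CPM in cells without, against 4433 CPM in cells with in mouse 1, and 34.0 and 3392 CPM in mouse 2, and was not called in edgeR (adjusted p = 0.0879). Dcn, which encodes decorin, had 1274 and 361 CPM in mouse 1 and 2843 and 703 CPM in mouse 2. The mitochondrial share was alike, at a median of 5.29 and 5.49% in mouse 1 and 3.50 and 4.23% in mouse 2. No gene of the related or marker lists was called here in edgeR, among them Spp1 (-0.50), Sdc4 (-1.66), Col3a1 (1.36), Inhba (0.23) and Cdh5 (3.47) by log2 fold change, and the part of these markers in the split was not tested beyond the exclusions above, in which leaving out cells with endothelial, pericyte or macrophage genes gave Postn a change of 0.92 and 3 called members.

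A second way of sorting the same cells, by the fibroblast list and by UMIs of the basal keratins Krt5 or Krt14, separated the members into groups. It was chosen after the values had been seen and is given as a description with no test. In cells with 3 or more fibroblast genes and no basal keratin (64 in mouse 1 and 29 in mouse 2), Mgp had 12889.7 and 5092 CPM, Fn1 1348 and 2949.5 CPM and Thbs2 65.5 and 342 CPM. Basal keratin cells with UMIs of fewer than 3 fibroblast genes (68 and 63 cells) had 577.5 and 462.5 CPM of Mgp, 83.8 and 172 CPM of Fn1 and 7.82 and 5.87 CPM of Thbs2. Cells with no basal keratin and fewer than 3 fibroblast genes, called cells with neither (113 and 63 cells), had 818 and 920.2 CPM of Mgp. The cells with fibroblast genes alone held 82.5% and 76.3% of the Fn1 UMIs of cluster 6, 80.6% and 80.5% of those of Thbs2, and 86.1% and 50.2% of those of Mgp, which in mouse 2 was thus spread more widely.

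Postn and Thbs1 were distributed otherwise. Postn had 1602 and 1948 CPM in cells with both fibroblast genes and a basal keratin (15 and 12 cells), 891 and 1746 CPM in cells with fibroblast genes alone, 839.9 and 631 CPM in cells with a basal keratin alone and 267 and 367 CPM in cells with neither. Basal keratin cells were thus higher in Postn than cells with neither, in both mice and at similar depth, with a median of 11918 and 8577 UMIs against 11760.0 and 7926 UMIs. In mouse 2, 0 of the 63 basal keratin cells and 13 of the 63 cells with neither had UMIs of 3 or more endothelial, pericyte or macrophage genes. The endothelial list summed to 2.94 and 1190.4 CPM in them (4.47 and 45.9 CPM in mouse 1). Its part in the Postn difference was not tested. Thbs1 had 799 and 910 CPM with a basal keratin alone and 364 and 465 CPM with neither. Sparc, by contrast, had 2322 and 787 CPM with a basal keratin alone and 1106 and 1336 CPM with neither, an order that turned between the mice, and Sparcl1 was lower with a basal keratin alone (553 and 354 CPM) than with neither (802 and 824 CPM). The Tnc level of mouse 2 was 367 CPM in cells with fibroblast genes alone, from 75 UMIs in 4 of 29 cells, and 82.2 CPM in cells with a basal keratin alone, from 56 UMIs in 14 of 63 cells. The order by level was not the order by share of cells.

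**Figure D5:**
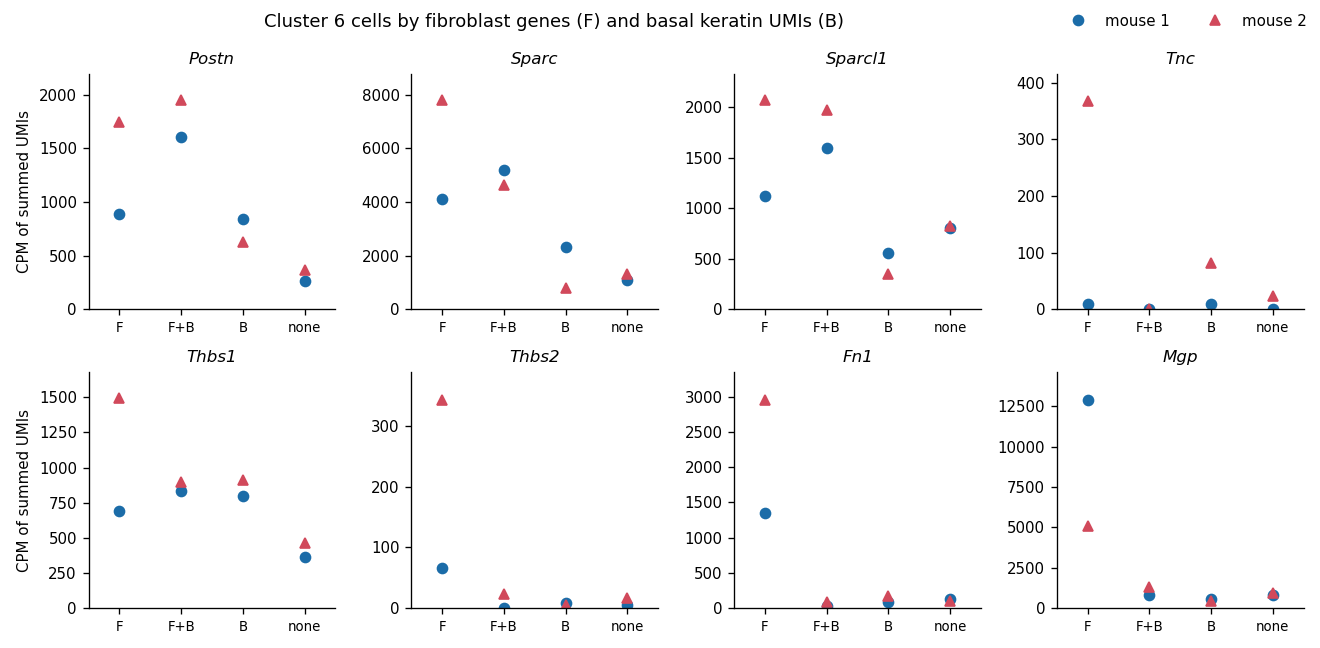
CPM of summed UMIs (vertical axis, from 0) in cluster 6 cells with UMIs of 3 or more fibroblast genes and no basal keratin (F), with both (F+B), with a Krt5 or Krt14 UMI and fewer than 3 fibroblast genes (B), and with no basal keratin and fewer than 3 fibroblast genes (none), for mouse 1 (circles) and mouse 2 (triangles). Mgp, Fn1 and Thbs2 are highest in F in both mice, while Postn stays at 839.9 and 631 CPM in B, above the 267 and 367 CPM of the cells with neither.

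Across the 33 mouse and cluster sums with at least 50 cells, the members differed in the genes whose levels ran most like theirs. Likeness was the Pearson correlation of log2(CPM + 10) over 5618 genes with at least 50 CPM in a sum, and it is a description, since the sums share libraries and the cluster 6 sums weigh heavily. Nearest to Postn were Pdpn, Myh11 and Fstl1 (r = 0.944, 0.944 and 0.942), which fell to 0.575, 0.550 and 0.598 without the 2 cluster 6 sums. Nearest to Sparc were Il17b, Serpinf1 and Bgn (r = 0.965, 0.953 and 0.951), and these held at 0.875, 0.874 and 0.820 without cluster 6. Sparcl1 ran with Col11a1, Fgfrl1 and Mia (r = 0.874, 0.848 and 0.803; 0.881, 0.801 and 0.741 without cluster 6). Tnc was nearest to Cygb, Ednrb and Emcn (r = 0.955, 0.952 and 0.952), and without cluster 6 these were only 0.434, 0.243 and 0.174. Thbs1 was nearest to Timp3, Fxr2 and Uaca (r = 0.755, 0.735 and 0.732), and Thbs2 to Tnfaip6, Col4a2 and Cnn1 (r = 0.884, 0.872 and 0.857). Fn1 was nearest to Actg2, Htra1 and Jag1 (r = 0.860, 0.859 and 0.858, against 0.547, 0.495 and 0.542 without cluster 6), and Mgp to Bgn, Sparc and Ecrg4 (r = 0.865, 0.864 and 0.842). Among the members themselves Postn and Sparc had r = 0.918, or 0.668 without the cluster 6 sums, and Sparc and Mgp 0.864, or 0.697. The order of these pairs thus turned. The lowest r was that of Sparcl1 and Thbs1 (0.264) over all sums and that of Sparcl1 and Fn1 (-0.37) without the cluster 6 sums.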

How the data were processed

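Single-cell 3' RNA libraries of 2 tumors, 1 per mouse, were analysed. The matrices that the authors deposited give UMI counts, whole and not normalized, for each gene and barcode, made with Cell Ranger 6.0.1 on genome build mm10. The deposited cell annotation, made by the authors with Seurat after they removed doublets with scDblFinder, shallow cells, mitochondrial outliers and contaminating clusters, and integrated the libraries, gives the cluster of each cell and the mitochondrial fraction of UMIs. The annotation's UMI and gene totals, signature scores and distances were not used. Depth was 63140346 and 61529883 UMIs, and 0 columns of other samples were present.

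Cells were joined by mouse and barcode. Levels are CPM of summed UMIs. Detection used cells thinned to 2000 UMIs without replacement (random seed 1), with exact Clopper-Pearson 95% intervals. Counts summed per mouse and group were fitted with edgeR 4.0.16 (limma 3.58.1, R 4.3.3): filterByExpr, TMM, quasi-likelihood test, mouse block, Benjamini-Hochberg over all genes, threshold 0.05, 1 residual degree of freedom. The pairing comes from the animal, and the mouse differences of the 2 groups of each comparison correlated across genes with r = 0.147, 0.452 and 0.335. Krt8 and Krt18 were left out of the fit of the split they define. The test was checked on simulated sums. DESeq2 1.42.0, Python 3.11.15, numpy 2.4.6, scipy 1.17.1 and pandas 2.3.3 were also used. Alternatives were no block, DESeq2, no filter, no TMM, thinning, exclusions of cells and leave-one-out fits without the block.

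Named genes were all members, the 3 genes most like each member, and up to 3 called genes with the largest change of each list in each comparison, or the 2 with the highest counts where none passed. Members and lists were chosen with earlier results of these data known. Plet1 and Ptprc were named after their values had been seen. A gene that this rule named is not reported here.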

Additional observations from a re-analysis of the deposited data

Results flagged for a closer look

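Barcodes that Cell Ranger called as cells but that have no annotation, 2346 in mouse 1 and 2208 in mouse 2, held UMIs of 6 members above the level that 3 UMIs would give in both mice (0.665 CPM in mouse 1 and 0.658 CPM in mouse 2), and Thbs2 passed it in mouse 1 only, at 3.33 CPM. They enter no comparison. By the mean of the mice the levels were 435.8 CPM for Thbs1, 74.6 CPM for Sparcl1, 61.3 CPM for Mgp, 33.1 CPM for Sparc, 31.1 CPM for Fn1 and 7.09 CPM for Postn. Postn had 12.9 CPM in mouse 1 and 1.32 CPM in mouse 2, Fn1 16.0 and 46.3 CPM, and Thbs1 245 and 627 CPM.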

How the results depend on the processing

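With 2 mice, 1 residual degree of freedom and few cells without a luminal keratin UMI, the number of genes called moved with the setting, while in the 2 cluster comparisons every member kept its direction under all alternatives run. With cluster 13 the 2782 genes called became 997 with DESeq2, 1080 after thinning to 2000 UMIs, and 0 to 1387 when a sum was left out (0 to 8 members called; 0 without cluster 6 of mouse 2). With the other tumor cells 2693 became 967 without the replicate block, 1679 after thinning, and 525 to 973 when a sum was left out (5 to 7 members). In the keratin split the 1 gene called became 108 with DESeq2 (2 members), 524 with no filter on low counts (3 members), 10 without TMM, 0 after thinning (377 at an unadjusted p under 0.05), 191 without cells of 3 or more fibroblast genes (3 members), 256 without cells of 3 or more endothelial, pericyte or macrophage genes (3 members), 471 when the keratin UMIs were called after thinning (6 members), 0 when at least 3 keratin UMIs were asked for (1001 at an unadjusted p under 0.05), and 0 to 280 when a sum was left out (0 to 2 members; most without the cells lacking the keratins of mouse 1). The edgeR log2 fold change changed sign in this split for Postn (-1.67) without cells of fibroblast genes. The keratin-lacking cells of mouse 2 then had 1 Postn UMI. The sign also changed for Tnc (0.89) and Thbs1 (0.85) with keratin UMIs called after thinning. It changed for Thbs2, between -0.39 and 2.79, when a sum was left out, the negative value being that without the keratin-lacking cells of mouse 2. The cause of these changes was not tested. The exclusion of endothelial, pericyte or macrophage cells and the scaling without TMM were chosen after seeing the data.

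The pairing by animal was the design. Without the replicate block, 1996 genes and 6 members were called with cluster 13, where Fn1 was lost, 967 genes and 7 members with the other tumor cells, where Tnc was lost, and 1 gene and 0 members in the keratin split (848 genes and 5 members at an unadjusted p under 0.05). Leave-one-out fits had no block, and the lone sum was assumed to vary like the others.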
